A study of Mus musculus with 19 samples.

Results

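Potassium channel genes are described here in the cerebellum of mice in which Gsα, the G protein subunit encoded by Gnas that switches on adenylyl cyclase, was deleted in part of the brain. The genes were chosen by name and level alone: symbols that start with Kcn, further letters and a number, at 1 FPKM or more in at least 3 of the 19 libraries. Of 22193 genes in the deposited tables, 94 carry such a name and 66 reached that level. The Olig1-Gnas group held 8 conditional knockouts made with Olig1Cre, the hGFAP-Gnas group 8 conditional knockouts made with hGFAPCre, and the Ctrl group 3 wild-type mice. All were C57BL/6 mice of postnatal day 60, and RNA came from frozen whole cerebellum. A conditional knockout of this kind loses the gene only in cells in which the named Cre was active, and in their descendants. The series' title names Gsα as a suppressor of medulloblastoma of the Sonic hedgehog type, a tumor of granule neuron progenitors. The table of hGFAP-Gnas has the word tumor in its name and that of Olig1-Gnas does not, and no label says which cerebella held tumor, so tumor content and genotype cannot be told apart.

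Potassium channels let potassium ions leave or enter the cell and so set the resting potential, the length of action potentials and the rate of firing. Voltage-gated (Kv) channels are tetramers of alpha subunits that open on depolarization, often with beta or KChIP subunits attached. Inward rectifiers (Kir) and tandem-pore (K2P) leak channels hold the resting potential, Kir channels being prominent in glia. Calcium-activated BK and SK channels and sodium-activated Slack channels repolarize the cell after firing. In the cerebellum, Kv3 channels support the fast firing of Purkinje cells and granule neurons, and K2P channels carry the standing outward current of granule neurons.

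The libraries fell into a deeper class (0.829 to 1.06 of the depth of Ctrl 2, estimated from the lowest values) and a shallower class (0.266 to 0.438), with both classes in every group. Gnas could not serve as a full check of the labels: among the knockouts it is listed at 0 in 3 of 8 libraries of Olig1-Gnas and in 7 of 8 of hGFAP-Gnas, but also in 1 of 3 Ctrl libraries of the first table and 2 of 3 of the second. Where it is above 0, the Olig1-Gnas values (24.0 to 121 FPKM) and the hGFAP-Gnas value (40.9 FPKM) lie below the Ctrl values (651 to 798 FPKM). The tissue carried its markers: 10 genes of mature granule neurons summed to 1943 to 2514 FPKM and 10 of Purkinje cells to 2911 to 4532 FPKM in Ctrl. Libraries hGFAP-Gnas 1 and Olig1-Gnas 6 stood apart from others of their groups. In hGFAP-Gnas 1, 9 genes of granule progenitors and of division summed to 64.0 FPKM, against 588 to 1393 FPKM in the other hGFAP-Gnas libraries and 21.4 to 29.2 FPKM in Ctrl. Over genes of 10 to 20 FPKM, the log2 ratios of Olig1-Gnas 6 to the other Olig1-Gnas libraries had a spread of 0.76 to 0.90, against 0.19 to 0.56 among those others. Without Olig1-Gnas 6, 67.5% of genes were called in Olig1-Gnas against Ctrl, against 59.8% with it, and 42 potassium channel genes against 40 (35 lower in both fits). Ctrl 1 and 2, Olig1-Gnas 1 and 2, and hGFAP-Gnas 5 and 6 were each other's closest matches, with a spread of log2 ratios of 0.12, 0.13 and 0.15 over genes of 100 to 300 FPKM. The deposited values do not say whether such pairs share more than their group.

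Many potassium channel genes were lower in the knockout cerebellum, 35 of 56 tested in Olig1-Gnas (23.6% of all genes tested) and 20 of 64 in hGFAP-Gnas (12.8% of all genes tested). Summed over the 66 genes, the level was 221 to 673 FPKM in Olig1-Gnas libraries (median 428) and 414 to 1929 FPKM in hGFAP-Gnas (median 685), against 1891, 1748 and 1812 FPKM in Ctrl. No Olig1-Gnas library reached Ctrl, and 1 hGFAP-Gnas library, number 1, lay above it. FPKM is a level per length of transcript, so levels may be compared between genes. Of 15 genes at a mean of 50 FPKM or more in Ctrl, 14 had a lower mean in both knockouts. Choosing genes by a high Ctrl level favours a fall, and the share of all genes at that level was not counted. Kcnc1, Kcnk1, Kcnt1 and Kcnj10 were among the highest in Ctrl, with means of 172 ± 15.0, 98.2 ± 8.00, 95.3 ± 8.52 and 92.0 ± 27.1 FPKM (SD, n = 3), and the last 3 do not differ beyond their spread. In Olig1-Gnas, Kcnj10, Kcnip3, Kcnk1 and Kcnmb4 were among the highest, with 50.5 ± 33.9, 36.3 ± 11.1, 28.4 ± 14.2 and 25.6 ± 10.5 FPKM (SD, n = 8), and neighbours in that order lie within each other's spread.

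**Figure D1:**
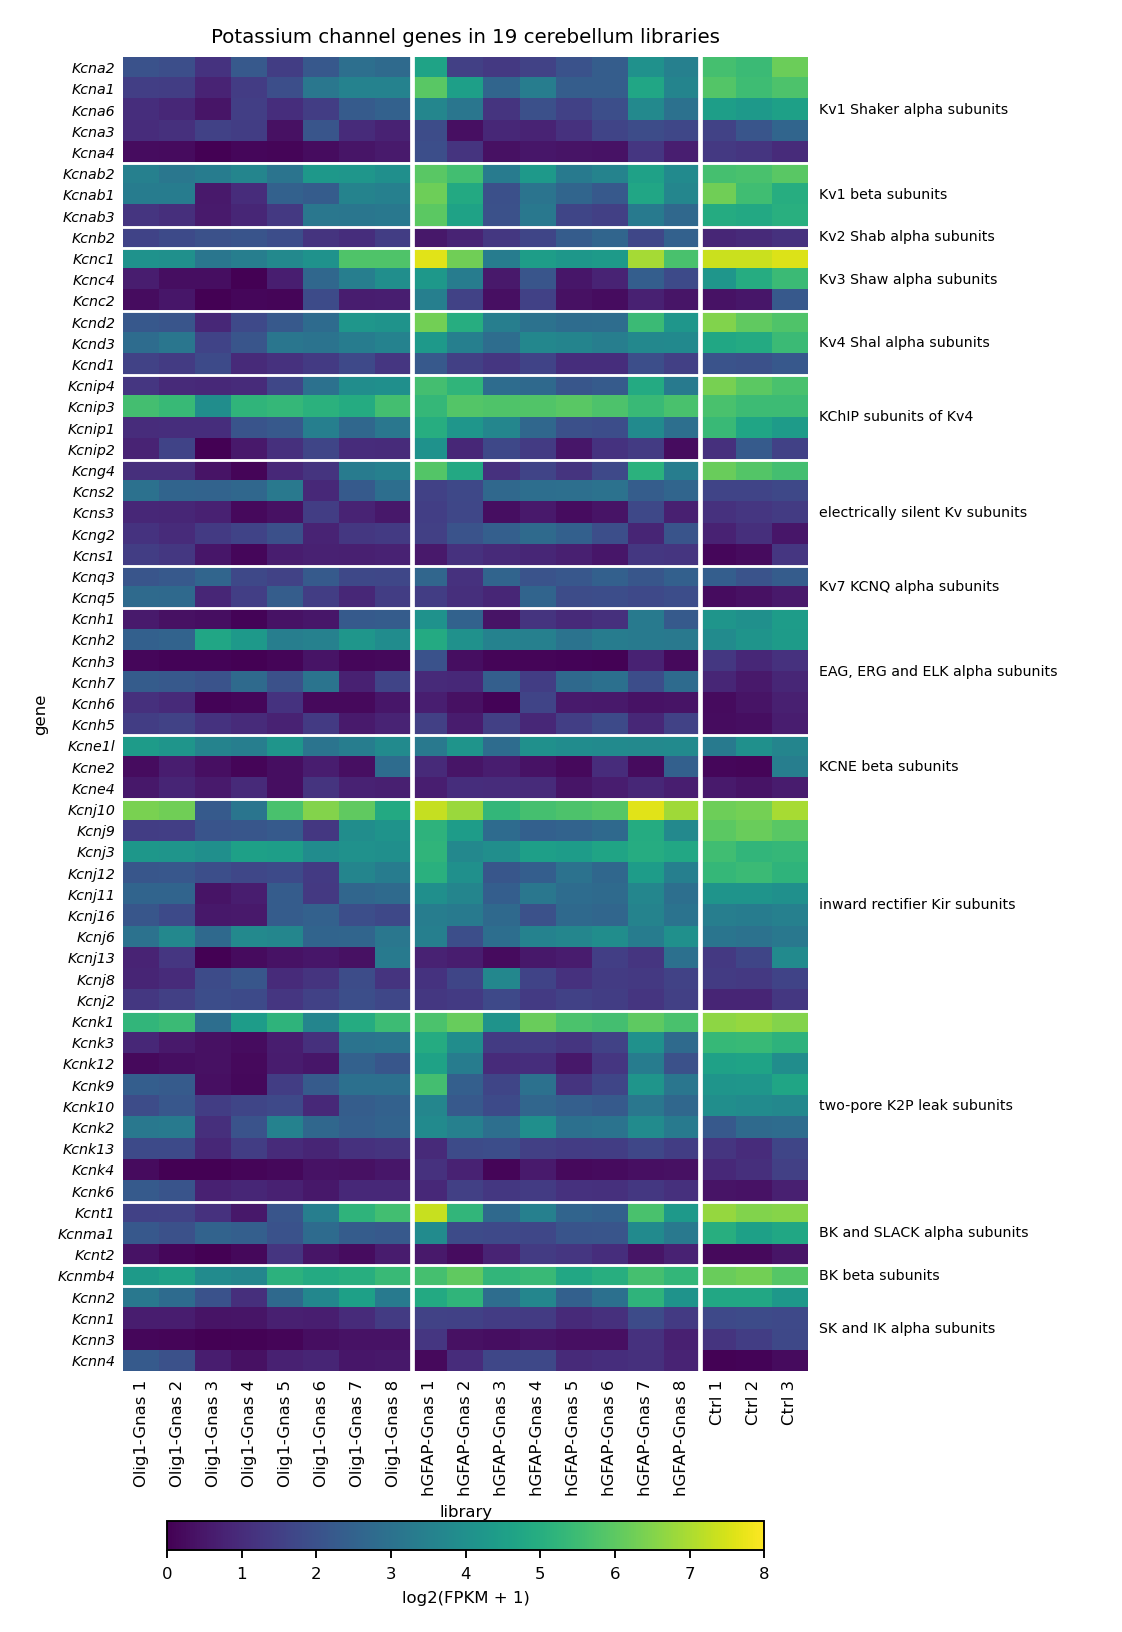
Level of 62 potassium channel genes (rows, grouped by class and ordered by Ctrl mean) in each of the 19 libraries (columns), as log2(FPKM + 1) on the colour scale. Many rows of the Kv1, Kv3, Kv4, inward rectifier and K2P classes are darker in most knockout libraries than in Ctrl, though Kcnj10 stays bright in most. Library hGFAP-Gnas 1 resembles Ctrl in many rows.

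Each comparison was tested on log2(FPKM + 1) with limma over all genes at 1 FPKM or more in at least 3 of its libraries, and a gene was called at a Benjamini-Hochberg adjusted p under 0.05. In Olig1-Gnas against Ctrl, 35 of 56 tested potassium channel genes were called lower and 5 higher. Over all 14183 genes tested, 59.8% were called, 23.6% lower and 36.2% higher. The median log2 difference was -1.51 for the potassium channel genes and 0.22 for all genes. Every Olig1-Gnas library lay below every Ctrl library for 32 of them (21.5% of all genes) and above for 1 (32.2%). In hGFAP-Gnas against Ctrl, 20 of 64 were called lower and 8 higher. Of 14305 genes, 38.9% were called, 12.8% lower and 26.1% higher, and the median was -0.72 against 0.19. The groups did not overlap for 12 lower genes (8.56% of all genes) and 4 higher genes (15.2%). Both comparisons use the same 3 Ctrl mice: 19 genes were lower in both, 4 higher in both, 16 lower in Olig1-Gnas and not called in hGFAP-Gnas, and 0 were called in opposite directions. Shared Ctrl libraries alone make calls in the same direction more likely. These crossed counts were not made over all genes, so they describe the potassium channel genes and no more. The 10 genes not tested in Olig1-Gnas and 2 in hGFAP-Gnas reached 1 FPKM in too few libraries of the comparison, and Kcnn3 entered the Olig1-Gnas test through Ctrl alone.

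**Figure D2:**
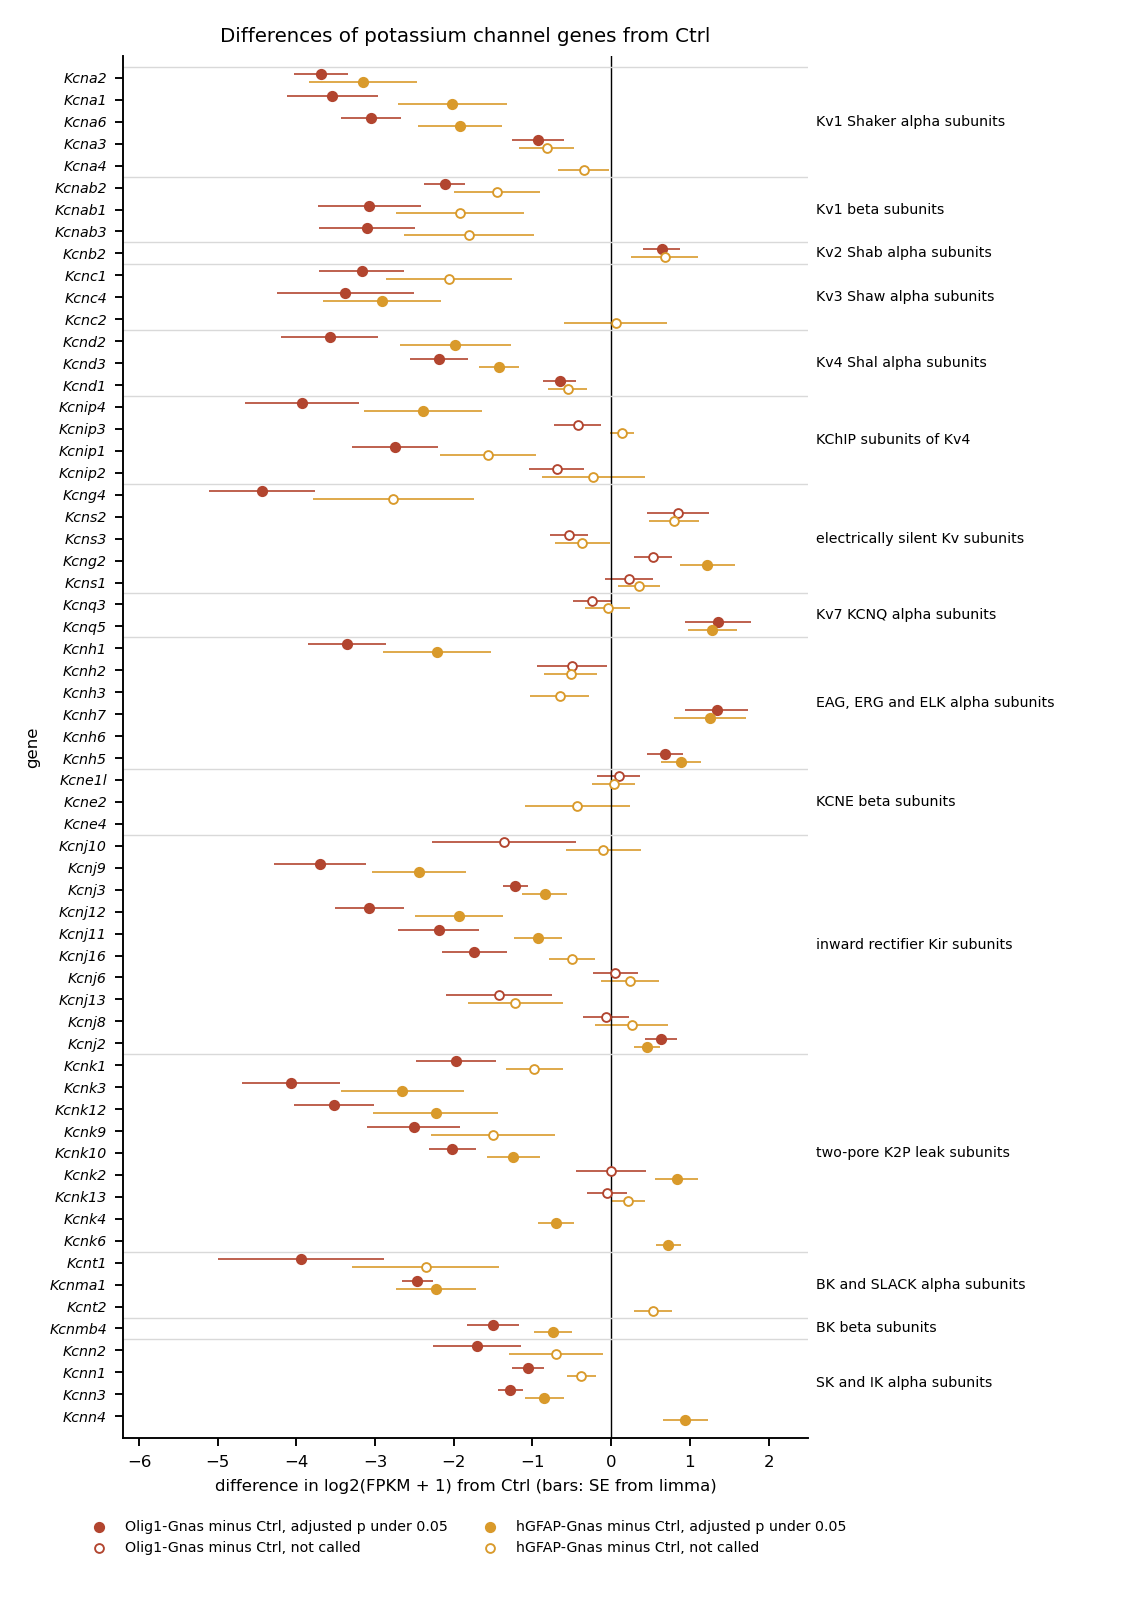
Difference of 62 potassium channel genes from Ctrl where tested, in log2(FPKM + 1), with SE bars, for Olig1-Gnas (red) and hGFAP-Gnas (yellow); filled points were called and open points were not. Most filled points lie left of 0, down to -4.44 for Kcng4 in Olig1-Gnas, and the few to the right reach 1.36 for Kcnq5.

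The hGFAP-Gnas calls rest on few Ctrl libraries: without Ctrl 1, 2 or 3, the number of called potassium channel genes was 2, 2 and 7, where 7.36%, 5.74% and 13.5% of all genes were called. Without hGFAP-Gnas 1 it was 42 (33 lower, 9 higher), where 57.4% of all genes were called. The Olig1-Gnas count was 32, 32 and 34 without Ctrl 1, 2 or 3, where 50.1%, 49.8% and 50.9% of all genes were called. Other scalings of the libraries changed the balance. Potassium channel genes in Olig1-Gnas were 37 lower and 1 higher after quantile normalization, and 37 and 4 after upper quartile scaling. In hGFAP-Gnas they were 26 lower and 2 higher, and 24 and 5. All genes shifted as well: quantile normalization left 2614 genes higher in hGFAP-Gnas in place of 3738, and the median difference of all genes was 0.06 in Olig1-Gnas and -0.013 in hGFAP-Gnas, in place of 0.22 and 0.19. The genes described below were chosen by class, call and level. Kcna3, Kcna6, Kcnc2, Kcnip2, Kcne2, Kcnj3, Kcnj11, Kcnj13, Kcnj16, Kcnk10 and Kcnn1, outside that rule, were chosen after their values were seen. Kcnq3, Kcns1, Kcns2 and Kcns3 also lie outside that rule. For genes outside the rule, fits with 1 library left out are not given for calls against Ctrl. Of 14 genes of the rule reported as lower in hGFAP-Gnas, Kcna2 and Kcnd3 kept their call when each library was left out in turn. The corresponding count in Olig1-Gnas was 22 of 23. It includes Kcnn3, which was tested in 8 such fits. Without any one Ctrl library Kcnn3 failed the filter and was not tested. Of the higher calls, 0 of 5 in Olig1-Gnas and 0 of 8 in hGFAP-Gnas were kept in every fit. Each was lost without at least 1 of the Ctrl libraries. The counts by class given below are to be read against the 23.6% of all genes called lower in Olig1-Gnas and the 12.8% called lower in hGFAP-Gnas; with few genes in a class, they describe its members and no more.

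Most markers of neurons were lower as well, and those of glia moved in both directions. The 10 markers of mature granule neurons summed to 73.6 to 537 FPKM in Olig1-Gnas libraries and 119 to 1532 FPKM in hGFAP-Gnas ones, against 1943 to 2514 FPKM in Ctrl; 9 and 8 of them were called lower. Those of Purkinje cells summed to 43.4 to 814 FPKM in Olig1-Gnas libraries and 143 to 2229 FPKM in hGFAP-Gnas ones, against 2911 to 4532 FPKM in Ctrl, and 10 and 9 of 10 were lower. The 8 markers of inhibitory interneurons summed to 32.4 to 407 FPKM in Olig1-Gnas libraries and 89.0 to 1111 FPKM in hGFAP-Gnas ones, against 1273 to 1653 FPKM in Ctrl, and 7 were lower in each. The 8 markers of mature oligodendrocytes summed to 22.3 to 294 FPKM in Olig1-Gnas libraries and 154 to 938 FPKM in hGFAP-Gnas ones, against 876 to 1112 FPKM in Ctrl, and 8 and 2 were lower. Those of oligodendrocyte precursors, 6 genes, summed to 137 to 309 FPKM in Olig1-Gnas libraries and 87.8 to 536 FPKM in hGFAP-Gnas ones, against 54.9 to 64.6 FPKM in Ctrl, and 3 and 5 were higher. The highest granule marker sums were those of Olig1-Gnas 7 and 8 and of hGFAP-Gnas 1, 7 and 2. Olig1-Gnas 7 and 8 were also the highest of their group for 22 of the 35 lower potassium channel genes, and hGFAP-Gnas 1 for 18 of 20. How often these libraries were highest among all lower genes was not counted. In the other direction, 9 of 9 genes of granule progenitors and division were higher in both knockouts. In bulk tissue, fewer cells of a type and less RNA per cell cannot be told apart, and the part of these markers in the results was not tested.

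**Figure D3:**
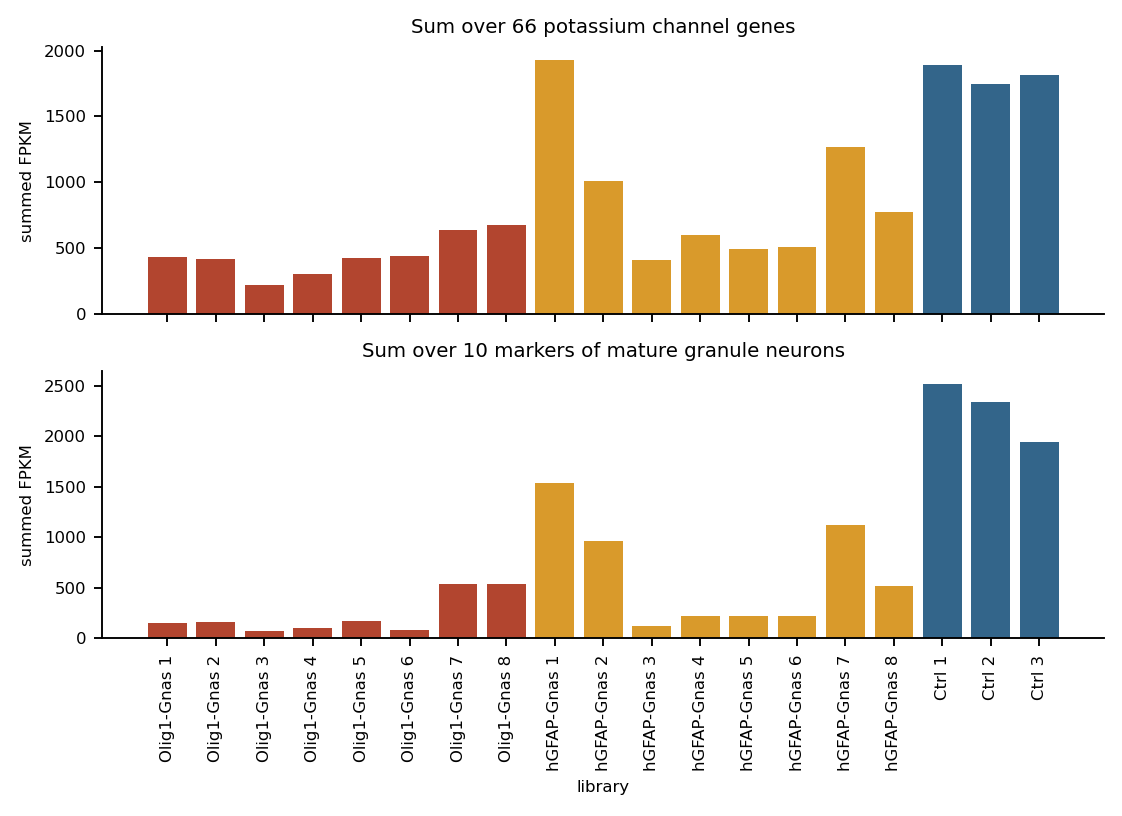
Summed FPKM of the 66 potassium channel genes (top) and of 10 markers of mature granule neurons (bottom) in each library. The channel sum is highest among the knockouts in hGFAP-Gnas 1 (1929 FPKM), 7 (1265 FPKM) and 2 (1013 FPKM), which also have the highest marker sums.

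Kv1 alpha subunits, the Shaker channels of axons and nerve terminals, were lower in Olig1-Gnas for all 4 tested genes and in hGFAP-Gnas for 3 of 5 (23.6% and 12.8% of all genes). Their summed level was 4.29 to 22.6 FPKM in Olig1-Gnas libraries and 9.01 to 102 FPKM in hGFAP-Gnas ones, against 112 to 154 FPKM in Ctrl. Kcna2 ranged from 1.27 to 6.54 FPKM in Olig1-Gnas (median 3.33) and from 1.497 to 24.1 FPKM in hGFAP-Gnas (median 3.59), against 49.4, 43.1 and 72.7 FPKM in Ctrl. Every knockout library lay below every Ctrl library. The difference was -3.68 ± 0.34 in Olig1-Gnas (SE; limma adjusted p = 3.21e-06) and -3.16 ± 0.69 in hGFAP-Gnas (adjusted p = 0.0101). Kcna1, mutated in human episodic ataxia, ranged from 0.728 to 10.8 FPKM in Olig1-Gnas (median 2.29) and from 4.11 to 61.2 FPKM in hGFAP-Gnas (median 10.3), against 56.6, 45.0 and 53.4 FPKM in Ctrl. Here hGFAP-Gnas 1 exceeded Ctrl, while Olig1-Gnas did not overlap it. The differences were -3.54 ± 0.58 (adjusted p = 0.000287) and -2.02 ± 0.69 (adjusted p = 0.0394).

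Kv1 beta subunits, which attach to the Kv1 alpha subunits inside the cell and affect their inactivation and transport, were lower in Olig1-Gnas for 3 of 3 genes and called in hGFAP-Gnas for 0 of 3. Kcnab2 ranged from 7.51 to 18.1 FPKM in Olig1-Gnas (median 10.8) and from 8.86 to 61.5 FPKM in hGFAP-Gnas (median 16.1), against 49.2, 50.8 and 60.9 FPKM in Ctrl. It fell by 2.12 ± 0.26 in Olig1-Gnas (limma adjusted p = 2.75e-05). In hGFAP-Gnas the value was -1.46 ± 0.54 (adjusted p = 0.0528), with a 95% interval of -2.65 to -0.26, and hGFAP-Gnas 1 lay above Ctrl. Kcnab1 and Kcnab3 fell by 3.08 ± 0.66 and 3.11 ± 0.61 in Olig1-Gnas (adjusted p = 0.00177 and 0.000952). Their hGFAP-Gnas values were -1.92 ± 0.81 and -1.81 ± 0.82 (adjusted p = 0.0773 and 0.0959). The Kcnab1 locus overlaps A730090N16Rik in the tables, and reads of overlapping genes may not be separable, since no source used here says whether counting used the strand.

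Kcnb2, a Kv2 (Shab) subunit of the delayed rectifiers of the cell body, was higher in Olig1-Gnas. It ranged from 1.08 to 3.26 FPKM in Olig1-Gnas (median 2.27) and from 0.431 to 5.05 FPKM in hGFAP-Gnas (median 2.24), against 0.827, 0.943 and 1.23 FPKM in Ctrl. The difference in Olig1-Gnas was 0.64 ± 0.24 (adjusted p = 0.0356), and the hGFAP-Gnas value was 0.68 ± 0.43 (adjusted p = 0.212). That call held in 4 of 11 fits with 1 library left out, and neither with quantile (adjusted p = 0.214) nor with upper quartile scaling (adjusted p = 0.0719). Among the Ctrl libraries only Ctrl 3 reached 1 FPKM, so Kcnb2 met the filter only with the knockouts, where it is high.

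Kv3 alpha subunits are the Shaw channels of fast-firing neurons. Kcnc1 ranged from 7.84 to 55.1 FPKM in Olig1-Gnas (median 15.53) and from 9.20 to 201 FPKM in hGFAP-Gnas (median 35.9), against 163, 164 and 189 FPKM in Ctrl. It fell by 3.17 ± 0.54 in Olig1-Gnas (adjusted p = 0.000418), and in hGFAP-Gnas the value was -2.07 ± 0.80 (adjusted p = 0.0586; 95% interval -3.82 to -0.32). Kcnc4 spread widely: 0 to 14.4 FPKM in Olig1-Gnas (median 0.574) and 0.384 to 18.1 FPKM in hGFAP-Gnas (median 2.88), against 17.5, 29.97 and 43.0 FPKM in Ctrl. Only hGFAP-Gnas 1 among the knockouts reached the lowest Ctrl library. The differences were -3.38 ± 0.87 (adjusted p = 0.00562) and -2.91 ± 0.75 (adjusted p = 0.0159). Kcnc2 was below 4 FPKM in all libraries but hGFAP-Gnas 1, which held 10.02 FPKM.

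The promoters of Kcnab2, Kcnc1, Kcnc4 and Kcnh5 are printed because Gsα raises cAMP and because these 4, among 37 genes chosen by the naming rule, were called in a knockout and hold the short core of the cAMP response element (TGACG, or CGTCA on the other strand). The windows are RefSeq's on GRCm38.p6, another build than the mm9 of the tables, and run from 250 bases before to 50 bases after the start. Capitals mark the short core.
Kcnab2, chr4:152477500-152477799, minus strand: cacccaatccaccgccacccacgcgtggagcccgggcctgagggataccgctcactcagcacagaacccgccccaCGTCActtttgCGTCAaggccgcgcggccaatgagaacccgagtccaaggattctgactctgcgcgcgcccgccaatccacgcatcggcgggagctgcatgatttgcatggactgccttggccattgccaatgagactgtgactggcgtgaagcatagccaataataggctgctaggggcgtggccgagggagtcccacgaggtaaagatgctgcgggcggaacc
Kcnc1, chr7:46396218-46396517, plus strand: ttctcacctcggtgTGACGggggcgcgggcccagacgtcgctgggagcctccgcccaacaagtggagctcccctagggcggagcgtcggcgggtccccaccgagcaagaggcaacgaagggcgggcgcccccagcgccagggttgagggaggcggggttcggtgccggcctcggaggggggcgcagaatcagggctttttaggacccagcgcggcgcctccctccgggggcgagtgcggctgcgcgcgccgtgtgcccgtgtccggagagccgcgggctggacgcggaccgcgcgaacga
Kcnc4, chr3:107458849-107459148, minus strand: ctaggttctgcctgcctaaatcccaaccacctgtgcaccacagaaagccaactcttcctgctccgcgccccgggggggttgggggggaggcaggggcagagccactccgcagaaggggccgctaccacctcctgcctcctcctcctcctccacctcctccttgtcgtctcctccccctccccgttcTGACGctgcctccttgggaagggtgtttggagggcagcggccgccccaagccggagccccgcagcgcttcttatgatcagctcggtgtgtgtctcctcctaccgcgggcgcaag
Kcnh5, chr12:75177283-75177582, minus strand: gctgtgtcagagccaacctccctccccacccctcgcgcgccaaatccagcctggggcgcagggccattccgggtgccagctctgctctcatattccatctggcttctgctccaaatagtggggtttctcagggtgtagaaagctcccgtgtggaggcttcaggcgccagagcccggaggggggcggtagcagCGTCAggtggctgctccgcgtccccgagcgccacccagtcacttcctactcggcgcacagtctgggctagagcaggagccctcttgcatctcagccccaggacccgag
RefSeq windows were found for 48 of the 66 genes, 72 in all, and 13 of them (18.1%) hold the short core on either strand, against 20.8% of all 32851 windows. The full element TGACGTCA is in 0 of 72 and in 1.79% of all windows, and the GLI motif GACCACCCA, or TGGGTGGTC on the other strand, in 0 of 72 and in 0.253%. The core is part of the full element. A match or its absence describes letters in these windows only.

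Kv4 alpha subunits, the Shal channels of the dendritic A-type current, were lower in Olig1-Gnas for 3 of 3 genes and in hGFAP-Gnas for 2. Kcnd2 ranged from 0.836 to 17.5 FPKM in Olig1-Gnas (median 3.69) and from 6.12 to 77.4 FPKM in hGFAP-Gnas (median 13.6), against 88.7, 65.7 and 54.9 FPKM in Ctrl. The differences were -3.58 ± 0.61 (adjusted p = 0.000392) and -1.98 ± 0.71 (adjusted p = 0.0455), and hGFAP-Gnas 1 lay within Ctrl. Kcnd3 was tighter, at 2.04 to 10.8 FPKM in Olig1-Gnas (median 7.51) and 6.30 to 19.2 FPKM in hGFAP-Gnas (median 11.6), against 26.2, 28.8 and 42.7 FPKM in Ctrl. No knockout library overlapped Ctrl. It fell by 2.19 ± 0.37 in Olig1-Gnas (adjusted p = 0.000342) and by 1.43 ± 0.26 in hGFAP-Gnas (adjusted p = 0.00699), the one call among these genes in hGFAP-Gnas that also passed an adjusted p of 0.01.

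The KChIP genes encode calcium-binding subunits of Kv4 channels and split into 2 kinds. Kcnip4 ranged from 0.885 to 14.8 FPKM in Olig1-Gnas (median 1.86) and from 3.41 to 47.3 FPKM in hGFAP-Gnas (median 7.43), against 81.2, 63.0 and 51.2 FPKM in Ctrl. Both knockouts lay wholly below Ctrl, by -3.93 ± 0.72 (adjusted p = 0.000647) and -2.39 ± 0.75 (adjusted p = 0.0290). Kcnip1, whose locus overlaps Kcnmb1, was lower in Olig1-Gnas (-2.75 ± 0.54, adjusted p = 0.00100) and had -1.57 ± 0.61 in hGFAP-Gnas (adjusted p = 0.0588). Kcnip3, whose protein is also a calcium-binding transcriptional repressor, was called in neither. It ranged from 14.1 to 48.2 FPKM in Olig1-Gnas (median 38.1) and from 39.5 to 61.3 FPKM in hGFAP-Gnas (median 54.2), against 51.6, 44.2 and 43.9 FPKM in Ctrl. Its 95% intervals were -1.07 to 0.22 and -0.19 to 0.47, so neither a fall of 1 log2 unit in Olig1-Gnas nor no change lies outside the first. Kcnip2 stood at 15.9 FPKM in hGFAP-Gnas 1 and below 4 FPKM elsewhere.

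Electrically silent Kv subunits form no channel alone and modify Kv2 channels. Kcng4 showed the largest fall of the potassium channel genes tested in Olig1-Gnas. Its level was 0.0705 to 10.1 FPKM in Olig1-Gnas (median 1.10) and 1.19 to 56.9 FPKM in hGFAP-Gnas (median 5.89), against 71.2, 57.3 and 47.8 FPKM in Ctrl. In Olig1-Gnas the difference was -4.44 ± 0.68 (adjusted p = 0.000166), with no overlap, and in hGFAP-Gnas -2.77 ± 1.03 (adjusted p = 0.0509; 95% interval -5.02 to -0.52). Kcng2 went the other way in hGFAP-Gnas: 0.742 to 2.83 FPKM in Olig1-Gnas (median 1.498) and 0.781 to 5.76 FPKM in hGFAP-Gnas (median 3.17), against 0.715, 1.13 and 0.387 FPKM in Ctrl. It rose by 1.22 ± 0.35 in hGFAP-Gnas (adjusted p = 0.0220) and had 0.53 ± 0.24 in Olig1-Gnas (adjusted p = 0.0721). Library hGFAP-Gnas 7 lay within Ctrl. The call was not kept without any one of the Ctrl libraries (highest adjusted p = 0.0897) or with quantile normalization (adjusted p = 0.0891). Kcns1, Kcns2 and Kcns3 were called in neither comparison.

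Kv7 subunits carry the M current, which acetylcholine and other transmitters shut off to raise firing. Kcnq5 was called higher in both knockouts, as were 3 other potassium channel genes. Kcnq5, and Kcnh5 and Kcnh7 among those 3, were under 1 FPKM in every Ctrl library and passed the filter through the knockouts alone, so their number is no support for a rise. Kcnj2, the remaining one, reached 1 FPKM in Ctrl 3 alone of the Ctrl libraries and also needed the knockouts to pass. Kcnq5 ranged from 0.816 to 5.75 FPKM in Olig1-Gnas (median 1.79) and from 0.802 to 4.95 FPKM in hGFAP-Gnas (median 2.52), against 0.194, 0.281 and 0.465 FPKM in Ctrl. All 16 knockout libraries exceeded all Ctrl libraries. The differences were 1.36 ± 0.42 (adjusted p = 0.0145) and 1.29 ± 0.31 (adjusted p = 0.0132). They kept their call under both other scalings, and in 10 and 9 of 11 fits with 1 library left out (highest adjusted p = 0.0562 and 0.0621). Kcnq3 was called in neither.

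Among the EAG, ERG and ELK genes, Kcnh1 fell and its close relative Kcnh5 rose. Kcnh1, an EAG channel, ranged from 0.0552 to 3.99 FPKM in Olig1-Gnas (median 0.347) and from 0.347 to 16.0 FPKM in hGFAP-Gnas (median 2.55), against 17.0, 15.2 and 20.5 FPKM in Ctrl. The differences were -3.36 ± 0.49 (adjusted p = 0.000117) and -2.22 ± 0.69 (adjusted p = 0.0280). Kcnh5, the other EAG channel, ranged from 0.488 to 1.97 FPKM in Olig1-Gnas (median 1.11) and from 0.535 to 2.49 FPKM in hGFAP-Gnas (median 1.83), against 0.213, 0.226 and 0.551 FPKM in Ctrl. It was higher by 0.68 ± 0.23 (adjusted p = 0.0224) and 0.89 ± 0.26 (adjusted p = 0.0228), with 1 library in each knockout group below the highest Ctrl library. The Kcnh5 calls were lost without Ctrl 1 or Ctrl 2 in Olig1-Gnas, and without any one of the Ctrl libraries in hGFAP-Gnas. Kcnh7, an ERG channel, ranged from 0.657 to 7.47 FPKM in Olig1-Gnas (median 3.42) and from 0.890 to 6.70 FPKM in hGFAP-Gnas (median 3.53), against 0.821, 0.453 and 0.816 FPKM in Ctrl. Olig1-Gnas 7 lay within Ctrl, and all hGFAP-Gnas libraries lay above it. Kcnh7 was higher by 1.34 ± 0.40 (adjusted p = 0.0119) and 1.26 ± 0.46 (adjusted p = 0.0479). After quantile normalization neither Kcnh5 (adjusted p = 0.183 and 0.216) nor Kcnh7 (adjusted p = 0.0648 and 0.161) passed, and the hGFAP-Gnas call of Kcnh7 held in 2 of 11 fits with 1 library left out. Kcnh2, the ERG channel of the heart, ranged from 4.53 to 25.5 FPKM in Olig1-Gnas (median 12.1) and from 7.23 to 28.7 FPKM in hGFAP-Gnas (median 9.80), against 13.4, 16.7 and 19.9 FPKM in Ctrl, and was called in neither.

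KCNE genes encode small beta subunits of Kv channels, and none of the tested ones was called. Kcne1l averaged 13.1 ± 4.43 FPKM in Olig1-Gnas (SD, n = 8) and 12.4 ± 3.47 FPKM in hGFAP-Gnas (n = 8), against 11.9 ± 3.26 FPKM in Ctrl (n = 3). Its differences were 0.10 and 0.03, with 95% intervals of -0.51 to 0.70 and -0.56 to 0.63. Kcne2 and the inward rectifier Kcnj13, both known from choroid plexus, were high in the same 3 libraries; they were singled out after their values were seen. Kcnj13 reached 8.58 FPKM in Olig1-Gnas 8 and 6.66 FPKM in hGFAP-Gnas 8, against 13.2 FPKM in Ctrl 3, and at most 2.16 FPKM elsewhere. Kcne2 reached 6.10, 4.43 and 9.64 FPKM in these libraries and at most 1.01 FPKM elsewhere. The 6 choroid plexus markers summed to 2674, 1167 and 1649 FPKM there and to at most 396 FPKM in the other libraries. The part of that tissue in both genes was not tested. The Kcnj13 locus overlaps Gigyf2, and reads of overlapping genes may not be separable.

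Of 10 inward rectifiers, 5 were lower and 1 higher in Olig1-Gnas (23.6% and 36.2% of all genes), and 4 were lower and 1 higher in hGFAP-Gnas (12.8% and 26.1%). Kcnj9, a subunit of the G protein-gated channels of neurons, ranged from 1.44 to 16.1 FPKM in Olig1-Gnas (median 3.33) and from 4.44 to 35.4 FPKM in hGFAP-Gnas (median 9.26), against 62.7, 71.7 and 60.5 FPKM in Ctrl. No knockout library came near Ctrl. The differences were -3.70 ± 0.58 (adjusted p = 0.000214) and -2.44 ± 0.60 (adjusted p = 0.0140). Kcnj3, which pairs with it, fell by 1.22 ± 0.16 (adjusted p = 4.75e-05) and 0.85 ± 0.28 (adjusted p = 0.0371), again without overlap. Kcnj6 of the same channel family stood at 4.96 to 12.6 FPKM in Olig1-Gnas (median 7.57) and 2.80 to 15.1 FPKM in hGFAP-Gnas (median 10.3), against 7.65, 7.13 and 8.13 FPKM in Ctrl. It was called in neither, with 95% intervals of -0.57 to 0.67 and -0.57 to 1.05.

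Kcnj12 and Kcnj2 both encode strong inward rectifiers and moved in opposite directions. Kcnj12 ranged from 1.56 to 11.5 FPKM in Olig1-Gnas (median 3.10) and from 3.40 to 32.5 FPKM in hGFAP-Gnas (median 8.58), against 39.5, 42.5 and 36.0 FPKM in Ctrl. It fell by 3.07 ± 0.44 (adjusted p = 9.27e-05) and 1.94 ± 0.55 (adjusted p = 0.0219), with no overlap. Kcnj2 ranged from 1.43 to 2.80 FPKM in Olig1-Gnas (median 2.06) and from 1.33 to 2.39 FPKM in hGFAP-Gnas (median 1.65), against 0.769, 0.759 and 1.47 FPKM in Ctrl. It was higher by 0.64 ± 0.20 (adjusted p = 0.0160) and 0.45 ± 0.17 (adjusted p = 0.0481), and overlapped Ctrl 3 in both groups. Of the Ctrl libraries only Ctrl 3 reached 1 FPKM, so Kcnj2 met the filter only with the knockouts, where it is high. Quantile normalization ended both calls (adjusted p = 0.0801 and 0.586), and upper quartile scaling that in hGFAP-Gnas (adjusted p = 0.0801). Kcnj11, the pore of the ATP-sensitive channel, was lower in both as well (-2.19 ± 0.52, adjusted p = 0.00311, and -0.93 ± 0.31, adjusted p = 0.0346), as was its regulatory subunit Abcc8 (-2.35 ± 0.55, adjusted p = 0.00308, and -1.37 ± 0.45, adjusted p = 0.0340).

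Kcnj10, the glial channel that clears potassium released by neurons, was called in neither comparison. It ranged from 3.81 to 91.1 FPKM in Olig1-Gnas (median 57.8) and from 38.3 to 196 FPKM in hGFAP-Gnas (median 84.7), against 73.6, 79.3 and 123 FPKM in Ctrl. The intervals are wide, -3.38 to 0.66 for the Olig1-Gnas difference and -1.14 to 0.94 for that of hGFAP-Gnas. Olig1-Gnas 3 and 4, at 3.81 and 7.58 FPKM, also had the lowest sums of 10 markers of Bergmann glia and astrocytes (453 and 270 FPKM), against 866 to 1594 FPKM in the other Olig1-Gnas libraries. These glial markers summed to 984 to 3169 FPKM in hGFAP-Gnas, against 2791 to 3539 FPKM in Ctrl, with 7 lower and 1 higher in Olig1-Gnas and 3 lower and 1 higher in hGFAP-Gnas. Their part in the Kcnj10 values was not tested. Kcnj16, which joins Kcnj10 in mixed channels, was lower in Olig1-Gnas (-1.74 ± 0.42, adjusted p = 0.00348).

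Neighbours on a chromosome did not share one pattern. Kcnj9 and Kcnj10 lie 11.9 kb apart on chromosome 1 (mm9), and their Olig1-Gnas differences were -3.70 and -1.36. Kcnj16 and Kcnj2 lie 38.2 kb apart on chromosome 11, with Olig1-Gnas differences of -1.74 and 0.64, the first called lower and the second higher. The Kv1 genes Kcna1 and Kcna6 lie 62.5 kb apart on chromosome 6 and were both lower in both knockouts. Kcna3 and Kcna2, 63.4 kb apart on chromosome 3, had -0.93 and -3.68 in Olig1-Gnas.

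Of the K2P leak channels, 5 of 7 were lower in Olig1-Gnas and 4 of 9 in hGFAP-Gnas (23.6% and 12.8% of all genes). In hGFAP-Gnas 2 of 9 were higher, where 26.1% of all genes were called higher. The sum of the class was 11.6 to 73.0 FPKM in Olig1-Gnas libraries and 34.4 to 182 FPKM in hGFAP-Gnas ones, against 187 to 211 FPKM in Ctrl. Kcnk3, an acid-sensitive TASK channel, ranged from 0.211 to 7.62 FPKM in Olig1-Gnas (median 0.711) and from 1.38 to 29.5 FPKM in hGFAP-Gnas (median 3.92), against 40.3, 41.4 and 35.3 FPKM in Ctrl. No knockout library reached Ctrl, and the differences were -4.07 ± 0.62 (adjusted p = 0.000159) and -2.66 ± 0.78 (adjusted p = 0.0240). Kcnk12 fell by 3.52 ± 0.51 (adjusted p = 0.000102) and 2.23 ± 0.79 (adjusted p = 0.0444), hGFAP-Gnas 1 lying within Ctrl. Kcnk1 ranged from 6.38 to 43.3 FPKM in Olig1-Gnas (median 32.5) and from 16.4 to 71.5 FPKM in hGFAP-Gnas (median 52.6), against 98.3, 106 and 90.2 FPKM in Ctrl. It fell by 1.97 ± 0.51 in Olig1-Gnas (adjusted p = 0.00544). In hGFAP-Gnas all libraries were below Ctrl, yet the value of -0.97 ± 0.36 did not pass (adjusted p = 0.0507).

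Kcnk2, a TREK channel opened by stretch and closed by protein kinase A, rose in hGFAP-Gnas. It ranged from 1.10 to 10.7 FPKM in Olig1-Gnas (median 5.12) and from 6.61 to 14.9 FPKM in hGFAP-Gnas (median 9.58), against 3.67, 5.76 and 6.06 FPKM in Ctrl. All hGFAP-Gnas libraries exceeded Ctrl (0.83 ± 0.27, adjusted p = 0.0323), and the Olig1-Gnas value was 0.00 with a 95% interval of -0.96 to 0.96. The rise did not pass with quantile (adjusted p = 0.105) or upper quartile scaling (adjusted p = 0.0701). The Kcnk2 call was also lost without any one of the Ctrl libraries and without hGFAP-Gnas 4 (highest adjusted p = 0.148). Its relative Kcnk10 was lower in both knockouts, at -2.02 ± 0.30 (adjusted p = 0.000127) and -1.24 ± 0.33 (adjusted p = 0.0177).

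Kcnk6 and Kcnn4, known from macrophages and other immune cells, were higher in hGFAP-Gnas. Kcnk6 ranged from 0.427 to 3.85 FPKM in Olig1-Gnas (median 0.856) and from 0.900 to 1.88 FPKM in hGFAP-Gnas (median 1.33), against 0.329, 0.302 and 0.625 FPKM in Ctrl. It rose by 0.73 ± 0.16 in hGFAP-Gnas (adjusted p = 0.01005) without overlap. The Kcnk6 call was lost without Ctrl 1 or Ctrl 2 (highest adjusted p = 0.0549). Kcnn4, the intermediate-conductance calcium-activated channel, ranged from 0.286 to 3.85 FPKM in Olig1-Gnas (median 0.607) and from 0.141 to 2.33 FPKM in hGFAP-Gnas (median 1.05), against 0.0417, 0.0635 and 0.170 FPKM in Ctrl. It rose by 0.94 ± 0.29 in hGFAP-Gnas (adjusted p = 0.0260), hGFAP-Gnas 1 lying within Ctrl. That call was lost without Ctrl 1, 2 or 3 (highest adjusted p = 0.0911) and with quantile normalization (adjusted p = 0.0884). Neither was tested in Olig1-Gnas, where libraries 1 and 2 were highest for both genes. The 8 markers of microglia and macrophages summed to 1756 and 1474 FPKM in those 2 libraries and to 480 to 695 FPKM in the other Olig1-Gnas libraries. They reached 121 to 1065 FPKM in hGFAP-Gnas, against 58.5 to 88.9 FPKM in Ctrl, lowest of the knockouts in hGFAP-Gnas 1; 6 were called higher in Olig1-Gnas and 8 in hGFAP-Gnas. Their part in both genes was not tested. Both were under 1 FPKM in every Ctrl library and entered the test through hGFAP-Gnas alone.

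Of the BK and Slack pores, 2 of 2 tested were lower in Olig1-Gnas and 1 of 3 in hGFAP-Gnas. Kcnma1, the BK pore, ranged from 2.92 to 5.91 FPKM in Olig1-Gnas (median 3.88) and from 2.22 to 13.6 FPKM in hGFAP-Gnas (median 3.25), against 31.1, 22.4 and 26.4 FPKM in Ctrl. The groups were far apart: -2.46 ± 0.19 (adjusted p = 7.51e-07) and -2.23 ± 0.51 (adjusted p = 0.0112). Kcnmb4, its beta subunit in neurons, fell by 1.501 ± 0.33 (adjusted p = 0.00217) and 0.74 ± 0.24 (adjusted p = 0.0312), with hGFAP-Gnas 2 within Ctrl. Its locus overlaps 1700058G18Rik. Kcnt1, the sodium-activated Slack pore, ranged from 0.429 to 46.8 FPKM in Olig1-Gnas (median 2.65) and from 4.43 to 161 FPKM in hGFAP-Gnas (median 14.5), against 105, 88.5 and 92.5 FPKM in Ctrl. It was lower in Olig1-Gnas (-3.95 ± 1.05, adjusted p = 0.00801) and had -2.35 ± 0.93 in hGFAP-Gnas (adjusted p = 0.0636), where library 1 lay above Ctrl.

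SK channels, which carry part of the afterhyperpolarization current, were lower in Olig1-Gnas for Kcnn1 and Kcnn2; Kcnn3, also called, passed the filter through Ctrl alone. Kcnn2, the SK channel of Purkinje cells, ranged from 1.13 to 22.1 FPKM in Olig1-Gnas (median 7.02) and from 4.51 to 36.6 FPKM in hGFAP-Gnas (median 13.996), against 26.9, 26.6 and 18.3 FPKM in Ctrl. It was lower in Olig1-Gnas (-1.70 ± 0.56, adjusted p = 0.0206), though not without Ctrl 1 or Ctrl 2 (highest adjusted p = 0.0708), and its value in hGFAP-Gnas was -0.70 ± 0.60 (adjusted p = 0.358). Its locus overlaps A330093E20Rik. Kcnn3 was low everywhere: 0 to 0.323 FPKM in Olig1-Gnas (median 0.0843) and 0.235 to 1.42 FPKM in hGFAP-Gnas (median 0.317), against 1.30, 1.73 and 2.33 FPKM in Ctrl. Its differences, -1.28 ± 0.16 and -0.85 ± 0.25, are given as a description, since Kcnn3 reached 1 FPKM in no Olig1-Gnas library.

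**Figure D4:**
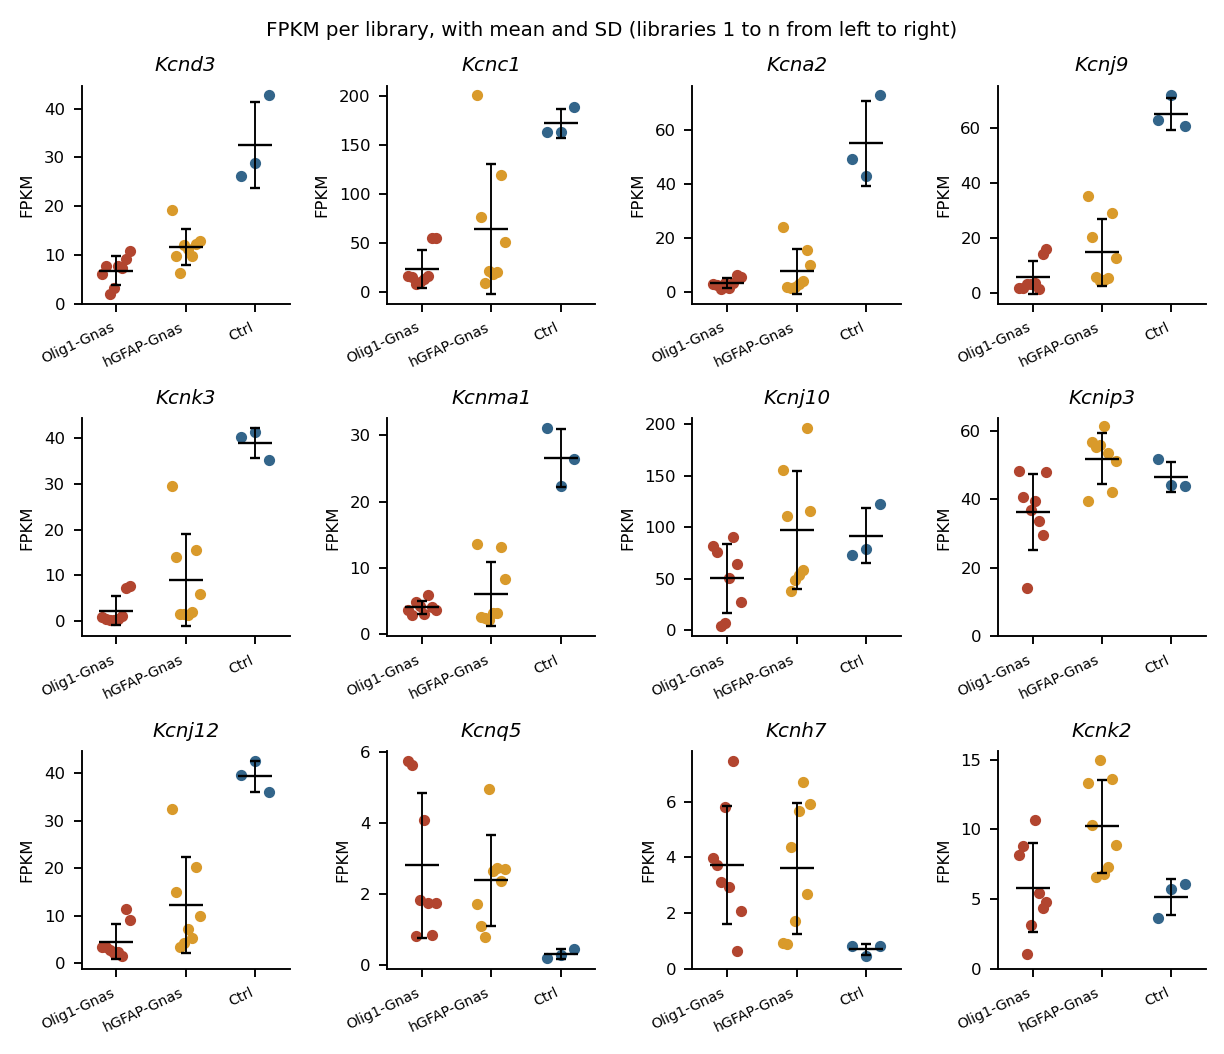
FPKM of 12 potassium channel genes in each library, with mean and SD of 8 Olig1-Gnas, 8 hGFAP-Gnas and 3 Ctrl libraries. Kcnd3, Kcnc1, Kcna2, Kcnj9, Kcnk3, Kcnma1 and Kcnj12 lie below Ctrl in nearly all knockout libraries, Kcnj10 and Kcnip3 overlap it, and Kcnq5 lies above it in all 16.

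Partners of potassium channels outside the Kcn names made a list of 18. In Olig1-Gnas, 10 of 16 tested were lower and 1 higher (23.6% and 36.2% of all genes), and in hGFAP-Gnas 9 of 17 were lower and 0 higher (12.8% and 26.1%), with medians of -1.68 and -1.05 against 0.22 and 0.19 for all genes. The Kv4 partners Dpp6 and Dpp10 averaged 13.2 ± 11.6 and 2.63 ± 2.99 FPKM in Olig1-Gnas and 40.7 ± 34.4 and 11.003 ± 10.1 FPKM in hGFAP-Gnas, against 105 ± 4.36 and 50.5 ± 5.80 FPKM in Ctrl. Dpp10 fell by 4.26 ± 0.64 (adjusted p = 0.000151) and 2.55 ± 0.66 (adjusted p = 0.0158). Akap5, an anchor of protein kinase A at channels, was the higher one in Olig1-Gnas (0.48 ± 0.18, adjusted p = 0.0378). Of the HCN pacemaker channels, Hcn3 was higher in Olig1-Gnas (0.70 ± 0.21, adjusted p = 0.0134), and its hGFAP-Gnas value was 0.46 ± 0.20 (adjusted p = 0.0878).

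Between the knockouts, Olig1-Gnas was lower than hGFAP-Gnas in the log2 difference of 57 of 63 tested potassium channel genes. Their median was -0.57, against 0.0074 for all genes tested. Of the potassium channel genes, 0 passed an adjusted p of 0.05, where 0.41% of 14386 genes did. At an unadjusted p under 0.05 there were 23, and the share of all genes at that level was not counted. The lowest adjusted p was that of Kcnn1, an SK channel, which ranged from 0.326 to 1.60 FPKM in Olig1-Gnas (median 0.582) against 0.956 to 2.56 FPKM in hGFAP-Gnas (median 1.65). Its difference was -0.67 ± 0.16 (adjusted p = 0.0728; 95% interval -1.01 to -0.33). Kcnj16 followed with -1.24 ± 0.31 (adjusted p = 0.0850), then Kcnj11 with -1.26 ± 0.37 (adjusted p = 0.124), Kcnmb4 with -0.76 ± 0.24 (adjusted p = 0.144) and Kcnd3 with -0.76 ± 0.26 (adjusted p = 0.155). These 5 were chosen after their values were seen. A fit over all 3 groups called 2 potassium channel genes (1.18% of all genes), a term for depth class 1 (1.15%), and the fit without Olig1-Gnas 8 also 1 (0.43%). The 16 genes called lower in Olig1-Gnas and not called in hGFAP-Gnas are therefore not shown to differ between the knockouts.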

How the data were processed

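Total RNA of flash-frozen cerebella was made into TruSeq libraries, per the labels' protocols. TopHat, Cufflinks and build mm9 stand in the submitters' processing notes; versions, strandedness and read counts are not stated there. The authors deposited 2 tables of values per gene and library, one per knockout, each with the 3 Ctrl libraries; the values fit FPKM (fragments scaled to transcript length and library size), although the deposited headers do not name the unit. Ctrl 2 and 3 are identical in both tables and Ctrl 1 differs slightly, so a comparison took Ctrl from the table that holds its knockout. Depth in reads is unknown, so no counting interval is given; relative depth was estimated from the lowest values.

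Values were tested as log2(FPKM + 1) with limma 3.58.1 (R 4.3.3; trend and robust moderation), fitted per comparison to all genes at 1 FPKM or more in at least 3 of its libraries, with Benjamini-Hochberg adjustment over all of them and a threshold of 0.05. Differences are on the log2(FPKM + 1) scale, which understates changes of low genes; ± after a difference is the SE and after a mean the SD, and 95% intervals use limma's degrees of freedom. The code was tested on simulated data. Genes were named by a rule: the highest in Ctrl per class, up to 2 called per class, direction and comparison with the largest difference, all called higher, and the 5 highest not called. Some genes are not reported here, although counts and sums over the family include them. The members, classes and lists were chosen with earlier results of these data known. No label says that libraries come from separate litters or preparations, so p-values measure the spread between these libraries. Alternatives covered scaling, filter, pseudocount, depth class, the replicate number as a block and each library left out. Tables were handled with Python 3.11.15, pandas 2.3.3 and numpy 2.4.6, and figures drawn with matplotlib 3.10.9.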

Additional observations from a re-analysis of the deposited data

Results flagged for a closer look

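The 8 libraries of each knockout were searched for a library far from the others (Dixon's ratio above 0.526) over 37 genes, 74 groups in all, and 8 were found; chance flags about 1 in 20. In 6 of them hGFAP-Gnas 1 was far above the next hGFAP-Gnas library: Kcna1 at 61.2 FPKM (next 25.5), Kcnab1 at 73.5 FPKM (next 27.9), Kcnab3 at 62.5 FPKM (next 23.4), Kcnh2 at 28.7 FPKM (next 15.503), Kcnk12 at 23.7 FPKM (next 9.25) and Kcnt1 at 161 FPKM (next 51.0). The lowest Kcnk1 value, 16.4 FPKM, was that of hGFAP-Gnas 3 (next 47.4). Kcnq5 reached 4.95 FPKM in hGFAP-Gnas 4 (next 2.75).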

How the results depend on the processing

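In Olig1-Gnas, 21 potassium channel genes were called in the shallower libraries alone (39.2% of all genes), against 40 in all, and 32 to 42 with 1 library left out. In hGFAP-Gnas, 28 were called. The count was 1 at an adjusted p under 0.01 (6.44% of all genes) and 18 with a 2-fold minimum (21.8% of all genes). It was 0 with the replicate number as a block (0 of all 14305 genes) and 0 in the deeper libraries alone (6 of all 13872 genes). It was 5 in the shallower libraries alone (16.9% of all genes) and 2 to 42 with 1 library left out. Between the knockouts, 2 were called in a fit over all 3 groups (1.18% of all genes), 1 with a depth term (1.15%) and 0 to 1 with 1 library left out. Same-numbered libraries had correlated deviations over 0.1 in 0 of 3, 1 of 3 and 3 of 8 pairs (-0.178 to 0.254 in all), so the numbers were not taken to pair the libraries. The block called 39 in Olig1-Gnas (59.2% of all genes) and 0 between the knockouts (0.174%). The causes were not tested. Values that changed sign were of genes not called in that comparison. In Olig1-Gnas, quantile and upper quartile scaling gave -0.046 and -0.071 for Kcne1l, -0.098 and -0.11 for Kcnj6, and -0.11 and -0.15 for Kcnk2. The deeper libraries gave -0.043 for Kcne1l and -0.060 for Kcnj6; for Kcnk2 the shallower ones gave -0.42, a pseudocount of 0.1 gave -0.048 and the block -0.080. In hGFAP-Gnas, Kcne1l had -0.17 (quantile), -0.096 (upper quartile), -0.27 (block), -0.00303 (depth term), -0.12 (deeper) and -0.088 (a term for Y-linked genes). Kcnj6 had -0.35 (block) and -0.11 (deeper), Kcnb2 -0.12 and Kcnh2 0.036 (block). With 1 library left out, Olig1-Gnas values ran from -0.082 to 0.28 for Kcne1l, -0.034 to 0.14 for Kcnj6 and -0.19 to 0.22 for Kcnk2, and hGFAP-Gnas values from -0.15 to 0.22 for Kcne1l and -0.27 to 0.13 for Kcnj10. Without read counts, no limit at low FPKM can be set.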

Other observations

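Kcnj8, the pore of the vascular ATP-sensitive channel, was called in neither comparison and stood at 12.2 FPKM in hGFAP-Gnas 3, the highest of the 19 libraries. Its medians were 1.31 FPKM in Olig1-Gnas and 1.81 FPKM in hGFAP-Gnas, against 1.53 FPKM in Ctrl. Kcnk9, a TASK channel of granule neurons, reached 47.7 FPKM in hGFAP-Gnas 1, against 17.1, 17.5 and 24.96 FPKM in Ctrl, while its hGFAP-Gnas median was 5.66 FPKM. Both were singled out after their values were seen.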
